A study of Mus musculus with 6 samples.

Results

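The regions described here are 1916 ATAC-seq peaks that lie between genes, stand low in the peak list of regulatory T cells (Treg cells) without Bcl11b, and have no counterpart in the list of Bcl11b-sufficient Treg cells. They are called KO-only peaks below. They were selected on measured values: a peak had to be in the last 50% of the rows of the KO list, to have no WT peak within 500 bp, and to have its midpoint outside all protein-coding genes and 1 to 100 kb from the nearest gene end. The KO list held 36182 peaks, of which 18091 were in that lower part and 6473 of those were between genes by this measure. The 1916 KO-only peaks were 29.6% of these 6473. Of the rest, 4078 overlapped a WT peak and 479 missed one by no more than 500 bp.

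KO cells came from mice with the genotype Bcl11b f/f Foxp3-IRES-YFP-Cre, and WT cells from mice with Bcl11b w/w Foxp3-IRES-YFP-Cre. Both groups were C57BL/6 and carried the same Foxp3 allele, from which Cre recombinase and a yellow fluorescent protein are made under the control of the Foxp3 gene, so that deletion is directed to cells that have switched on Foxp3. CD4+YFP+ cells were sorted from spleen and draining lymph nodes, and 100000 cells of each of 3 KO and 3 WT samples were tagmented. No source used here gives the age or sex of the mice. One merged peak list per genotype was used, so a region has 1 entry or none per genotype and no value per sample. The depth behind a list is unknown, its score column is 1 in every row, and no test of KO against WT samples could be made. Intervals in the text are 95% intervals by the exact method of Clopper and Pearson. They hold counting error alone and treat neighbouring peaks as independent.

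At genes that mark the sorted population, Il2ra held 4 KO and 4 WT peaks in the gene or within 1 kb of it, Ctla4 held 2 and 3, Ikzf2 held 11 and 7, Cd3e held 2 and 2, Cd4 held 2 and 1, and Foxp3 held 1 and 1. Cd8a and the myeloid genes Itgam and Csf1r held 0 in both lists, whereas Cd8b1 held 1 in each. Other myeloid genes differed, and these were looked at after the values were seen. Spi1, Tlr2, Fcgr3, Cd14 and Cebpb had a peak in both lists within 1 kb of a gene end. Tlr4 had such a peak in the KO list alone. Itgax, Lyz2, Csf2ra, Fcgr1, Mpo, Elane, S100a8, S100a9, Adgre1 and Cd68 had none there.

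ATAC-seq uses a transposase that cuts where DNA is free of nucleosomes, so a peak marks accessible chromatin: a promoter, an enhancer, an insulator or another bound site. Accessible sites away from genes are mostly enhancer-like elements that differ between cell types more than promoters do, and the gene nearest to one is not always its target. Bcl11b is a zinc finger transcription factor that commits progenitors to the T cell lineage and represses natural killer and innate lymphoid genes, and in Treg cells it acts with Foxp3.

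In 4 KO-only peaks all 193 bases lay within the promoter window of a long noncoding RNA (lncRNA) gene, so their sequence can be read directly. A promoter window here is the RefSeq sequence from 250 bases before to 50 bases after an annotated start, on the strand of the gene, in GRCm38.p6 (the mm10 assembly). Capitals mark the bases inside the KO-only peak. The windows are those of Gm34793 (chr11:72946325-72946624, plus strand, nearest protein-coding gene Atp2a3, a calcium pump, at 14.7 kb), Gm36329 (chr15:77722925-77723224, minus strand, nearest Apol7e at 3.81 kb), Gm39902 (chr2:106955531-106955830, plus strand, nearest Arl14ep at 6.87 kb) and Gm41069 (chr13:113225918-113226217, minus strand, nearest Esm1 at 7.91 kb).
Gm34793: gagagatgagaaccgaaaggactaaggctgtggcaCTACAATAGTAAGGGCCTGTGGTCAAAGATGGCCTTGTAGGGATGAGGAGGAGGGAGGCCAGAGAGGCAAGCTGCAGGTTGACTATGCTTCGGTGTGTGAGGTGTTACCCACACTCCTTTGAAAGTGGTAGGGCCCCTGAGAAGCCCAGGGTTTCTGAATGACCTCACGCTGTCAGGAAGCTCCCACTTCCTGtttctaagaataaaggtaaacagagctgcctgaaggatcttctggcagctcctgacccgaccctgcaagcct
Gm36329: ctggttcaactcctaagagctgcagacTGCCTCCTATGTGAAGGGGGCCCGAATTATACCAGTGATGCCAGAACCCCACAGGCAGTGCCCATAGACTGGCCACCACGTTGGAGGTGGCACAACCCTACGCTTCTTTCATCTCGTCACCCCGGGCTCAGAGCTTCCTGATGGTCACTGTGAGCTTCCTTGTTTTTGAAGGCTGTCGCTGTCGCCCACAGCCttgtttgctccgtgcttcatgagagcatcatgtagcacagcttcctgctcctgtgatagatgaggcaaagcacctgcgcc
Gm39902: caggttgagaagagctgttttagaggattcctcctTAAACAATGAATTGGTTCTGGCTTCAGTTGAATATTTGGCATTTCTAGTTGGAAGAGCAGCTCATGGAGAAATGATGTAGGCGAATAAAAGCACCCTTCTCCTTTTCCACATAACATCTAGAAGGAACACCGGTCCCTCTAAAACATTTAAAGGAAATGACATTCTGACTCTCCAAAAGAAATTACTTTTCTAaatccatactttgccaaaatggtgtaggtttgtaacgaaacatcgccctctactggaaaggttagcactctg
Gm41069: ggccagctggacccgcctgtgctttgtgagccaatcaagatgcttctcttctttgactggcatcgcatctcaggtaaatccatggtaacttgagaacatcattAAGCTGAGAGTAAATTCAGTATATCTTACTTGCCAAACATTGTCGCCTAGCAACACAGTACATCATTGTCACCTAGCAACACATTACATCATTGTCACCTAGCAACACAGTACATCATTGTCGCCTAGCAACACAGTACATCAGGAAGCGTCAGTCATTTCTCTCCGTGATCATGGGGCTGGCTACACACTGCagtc

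The Gm34793 peak, at chr11:72946360-72946552, stood at 65.2% of the list and had its nearest WT peak 5.4 kb away. It was the only one of these 4 whose capitals held any of the words searched: TGTGGT, the core that RUNX factors read, and CTTTGAA, a TCF and LEF word. Its GC content was 54.9% inside the peak, against 57.5% in the Gm36329 peak, 37.3% in the Gm39902 peak and 44.6% in the Gm41069 peak. The Gm41069 window holds a run of 28 bases that occurs 2 times in it; the longest such run in the other 3 windows was 7, 9 and 7 bases. These lncRNA genes were named because their windows hold a whole KO-only peak, after the values were seen.

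Of the 1872 KO-only peaks on chromosomes with promoter windows used here, 25 touched a window, or 1.34% (0.866 to 1.97%). The share was 1.09% (0.723 to 1.57%) for the 2577 corresponding WT-only peaks and 1.6% (1.23 to 2.05%) for the 3928 low-ranked KO peaks between genes that a WT peak overlapped. KO-only peaks could touch only windows away from protein-coding genes, which the selection sets. The touched windows are counted as 25, 1 per gene, although Gm32605, Gm33663 and Gm35667 were touched at windows of more than 1 start. They are given beside the 5209 windows whose own midpoint lies between genes by the same measure, and beside all 32851. The comparison with the 5209 was added after the data were seen. The compared windows may hold more than 1 start of a gene. The RUNX word TGTGGT was found on either strand in 3 of 25, against 21.5% of windows between genes and 16.8% of all windows. The STAT word TTCNNNGAA was in 4 of 25, against 9.45% and 8.3%. The AP-1 word TGANTCA was in 2 of 25, against 10.7% and 7.81%, the TCF word CTTTGAA in 1, against 6.74% and 5.14%, and the GATA word AGATAAG in 1, against 3.99% and 3.04%. The ETS word CCGGAAG was in 0 of 25, against 3.15% of windows between genes and 8.86% of all windows, the CTCF word AGGGGGCGC in 0, against 0.211% and 1.25%, and the NF-kB word in 0, against 1.82% and 1.63%. None of these words contains another, and a word in a window is only a match of letters. The counts are for whole windows, which shared between 2 and 193 bases with a KO-only peak. Among the peak bases, the RUNX word stood only in the Gm34793 window, the STAT word only in that of Gm12292 and the AP-1 word only in that of Gm35837. Gm12292 and Gm35837 were named after their values were seen. The median GC content was 49.3% over the 25 windows, 47.7% over windows between genes and 52.7% over all windows.

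A pair of KO-only peaks covered microRNA hairpins, both on chromosome 3 between Rhbg and its neighbours. The peak at chr3:88215169-88215361 contained all 87 bases of the Mir3093 hairpin, and the peak at chr3:88215670-88215862 contained 17 of the 89 bases of the Mir9-1 hairpin. They stood at 88.4% and 87% of the list, and the nearest WT peak was 37.1 and 37.6 kb away. Mir9-1 is 1 of the genes that encode miR-9, a microRNA best known from neural development. No hairpin was covered by a peak of the WT-only, the overlapped KO or the overlapped WT set, or of the KO-only peaks in the upper 50% of the list. Another KO-only peak, at chr13:83737788-83737980, lay 0.834 kb from Mir9-2, which makes the same mature miR-9, and its nearest protein-coding gene was Mef2c at 70.8 kb. One more, at chr11:43377145-43377337, lay 2.68 kb from Mir146, the gene for miR-146a, which restrains NF-kB signalling and is known for a role in Treg cells. It stood at 71.7% of the list, with the nearest WT peak 7.9 kb away. The hairpins are shown with the bases inside a KO-only peak in capitals, and the mature microRNAs with the seed, bases 2 to 8, in capitals. The seed of miR-9-5p is the same from both loci.
Mir9-1 hairpin, chr3:88215598-88215686, plus strand: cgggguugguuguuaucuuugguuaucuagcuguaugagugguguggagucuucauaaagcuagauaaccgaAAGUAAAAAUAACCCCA
Mir3093 hairpin, chr3:88215171-88215257, plus strand: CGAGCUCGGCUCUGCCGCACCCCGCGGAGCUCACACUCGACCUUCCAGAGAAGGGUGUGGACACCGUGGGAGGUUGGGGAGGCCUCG
mmu-miR-9-5p: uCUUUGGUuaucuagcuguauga
mmu-miR-3093-5p: cGCACCCCgcggagcucacacu
mmu-miR-146a-5p: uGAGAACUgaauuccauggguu

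In all, 10 of 1872 KO-only peaks, or 0.534% (0.256 to 0.98%), lay within 5 kb of a microRNA hairpin, against 8 of 2577 WT-only peaks, or 0.31% (0.134 to 0.611%). Chromosome 18 was left out of these counts too. The overlapped low-ranked KO peaks had 17 of 3928, or 0.433% (0.252 to 0.692%), and the overlapped WT peaks 14 of 3504, or 0.4% (0.219 to 0.669%). The intervals of these sets overlapped. KO-only peaks in the upper 50% of the list, which were not selected, had the highest share, 6 of 349 or 1.72% (0.633 to 3.7%). That interval overlapped the one of the selected KO-only peaks. These microRNA genes were named after their values were seen.

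The values at the limits of the selection were as follows. The uppermost KO-only peak by row, nearest to Gm5148, was row 18098 at chr3:37767713-37767905, and the last one left out by row, nearest to Frmd5, was row 18091. A peak nearest to Postn had its closest WT peak 501 bp away and was included, and one nearest to Rest had it 492 bp away and was not. At the short limit of distance a peak 1007 bp from Crisp2 was included and one 981 bp from Cdh6 was not. At the long limit a peak 99977 bp from Cypt12 was included and one 100360 bp from Zfp36l2 was not.

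WT peaks chosen in the same way, with the lists exchanged, numbered 2660 of 6702, or 39.7%, and serve for comparison as the WT-only peaks. The WT list is the longer, with 38258 rows, and its peaks are 219 bp wide, whereas KO peaks are 193 bp wide. Between-gene KO peaks lacked a WT counterpart in 17.7% of cases among rows 50 to 60% down the list and in 46.2% among the last 10% of rows. The corresponding WT values were 17.6% and 63.5%. In the first 10% of rows the share was 2.39% (1.1 to 4.48%) in the KO list and 0 in the WT list. The order of rows was taken as a rank, although no header or label says that the authors sorted the lists. Place in the list chose the peaks, so these shares are a description only.

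**Figure D1:**
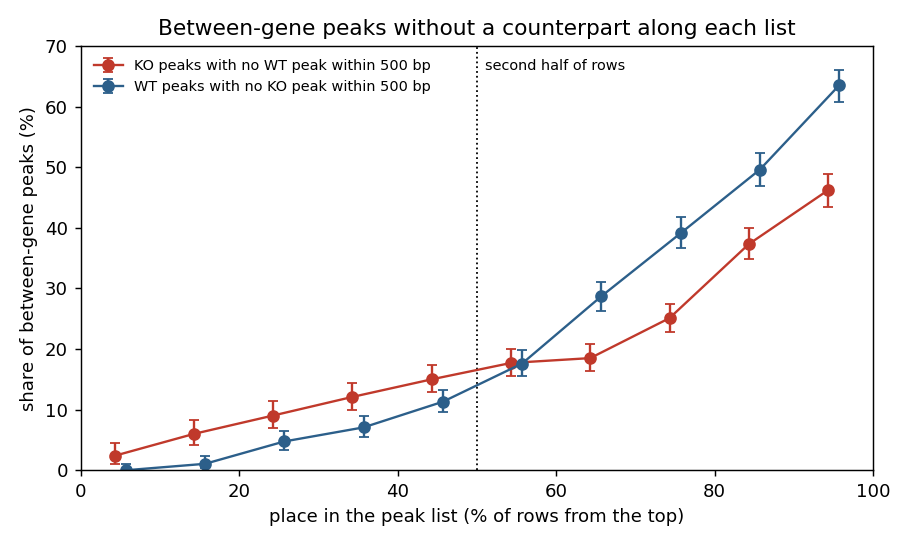
Share of between-gene peaks without a counterpart (y axis, %) in bins of 10% of the rows of the KO list (red) and the WT list (blue), by place in the list (x axis, % of rows from the top); bars are exact 95% intervals and the points of the lists are drawn slightly apart. Both shares climb down the lists, to 46.2% in KO and 63.5% in WT in the last bin.

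KO-only peaks stood at a larger median distance from the nearest shared peak than the KO peaks that both lists held. Their nearest shared peak, a KO peak that a WT peak overlaps, was at a median of 16.7 kb, against 12.8 kb for overlapped KO peaks of the same rows, with a peak not counted as its own neighbour. WT-only peaks had a median of 14.9 kb. The selection removed peaks with a WT peak within 500 bp, so it sets a part of this distance: the smallest was 616 bp for KO-only peaks and 399 bp for overlapped KO peaks. A shared peak lay within 10 kb of 35.9% of KO-only peaks (33.7 to 38%), of 37.5% of the WT-only set (35.7 to 39.4%) and of 41.5% of overlapped KO peaks (40 to 43%). At the far end, 9.92% of KO-only peaks (8.61 to 11.3%) had no shared peak within 100 kb, against 7.52% of the WT-only set (6.55 to 8.59%) and 3.95% of overlapped KO peaks (3.37 to 4.59%).

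The comparison with overlapped peaks was not the same in the upper and lower part of the selected rows. Among rows 50 to 75% down the list, 50% of KO-only peaks (45.9 to 54.1%) had a shared peak within 10 kb, against 45.1% of overlapped KO peaks (43.1 to 47.2%), with overlapping intervals. Among rows 75 to 100%, the shares were 29.7% (27.2 to 32.2%) for KO-only peaks and 37.1% (34.9 to 39.3%) for overlapped ones, and the intervals did not overlap. WT-only peaks followed the same course, with 50.2% in the upper rows and 31.5% in the lower. The 360 KO-only peaks between genes in the upper 50% of the list, which were not selected, had a shared peak within 10 kb in 71.4% of cases (66.4 to 76%). KO-only peaks stood lower in the list than overlapped KO peaks, at a median of 84.2% against 72.7% of rows, so in the shares over all selected rows the place in the list and the set cannot be told apart.

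Over all selected rows, the median distance to a gene was slightly larger for KO-only peaks than for the WT-only and the overlapped KO set. Within the limits set by the rule, KO-only peaks were at a median of 17.6 kb from the nearest gene end, WT-only peaks at 16.4 kb and overlapped KO peaks at 16.2 kb. The interval of the KO-only median by order statistics, 16583 to 18773 bp, left out both other medians, 16402 and 16196 bp, for which no interval is given. Among rows 50 to 75% the medians were 16.2 kb for KO-only, 16.6 kb for WT-only and 15.6 kb for overlapped KO peaks. Among rows 75 to 100% they were 18.4, 16.3 and 17 kb, so KO-only peaks stood further out than both other sets only in these rows. The 360 KO-only peaks in the upper 50% of the list had a median of 13.2 kb, and 26.9% of them (22.4 to 31.8%) had a gene end within 5 kb. A gene end lay within 5 kb of 17.2% of KO-only, 16.5% of WT-only and 16.4% of overlapped KO peaks, and within 50 kb of 83.1%, 83.8% and 85.3% of the same sets. Of 1544 KO-only peaks whose nearest gene has a strand in the promoter table, 52.5% (50 to 55%) were upstream of it, against 51.9% (49.7 to 54%) of WT-only peaks. For 27% of KO-only peaks the gene on the other side was less than 2 times as far, so that their assignment to a gene is loose.

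**Figure D2:**
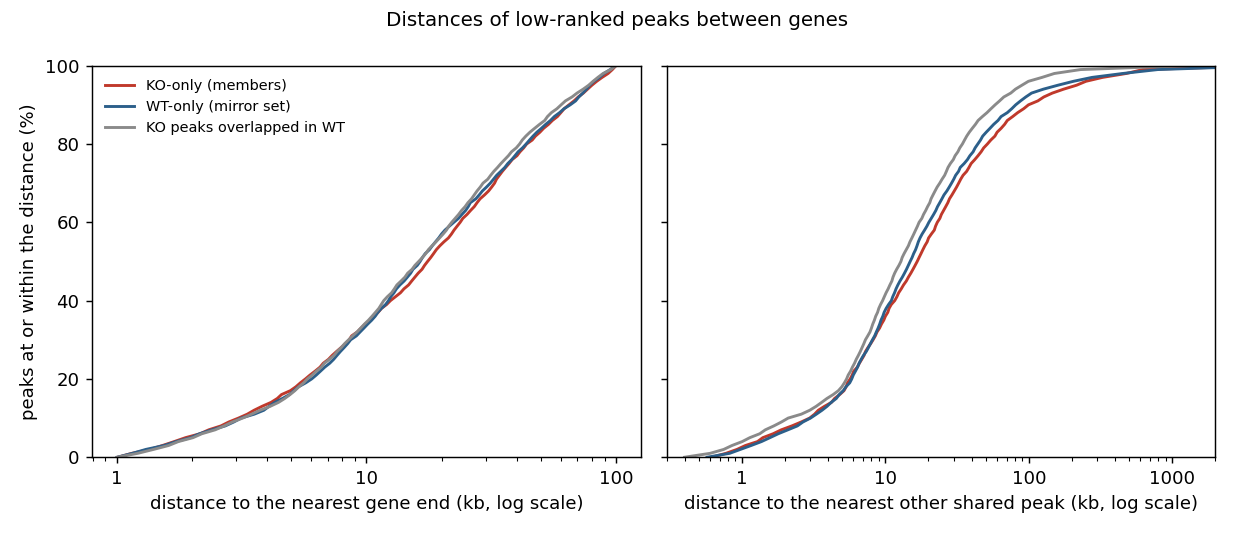
Cumulative share of peaks (y axis, %) by distance to the nearest gene end (left) and to the nearest other shared peak (right), in kb on log axes, for KO-only peaks (red), WT-only peaks (blue) and low-ranked KO peaks overlapped in WT (grey). The curves lie close together on the left, with medians of 17.6, 16.4 and 16.2 kb, and separate on the right, with medians of 16.7, 14.9 and 12.8 kb.

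A smaller share of KO-only peaks had a nearest gene with accessible ends, counted by peak and not by gene. The nearest gene had a shared peak within 1 kb of either end for 50.8% of KO-only peaks (48.5 to 53%), 57% of the WT-only set (55 to 58.8%) and 60.3% of overlapped KO peaks (58.8 to 61.8%). The nearest gene had no end peak in either list for 39.4% of KO-only peaks (37.2 to 41.6%), 34.4% of the WT-only set (32.6 to 36.2%) and 30.9% of overlapped KO peaks (29.5 to 32.3%). The difference lay mostly in the lowest rows. Among rows 75 to 100% the share with a shared end peak was 48.1% (45.4 to 50.8%) for KO-only peaks, 55.4% (53.1 to 57.7%) for WT-only peaks and 60.3% (58.1 to 62.6%) for overlapped KO peaks. Among rows 50 to 75% it was 56.9% (52.7 to 60.9%), 60.2% (56.9 to 63.5%) and 60.3% (58.2 to 62.3%), with overlapping intervals.

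About as many KO-only peaks as peaks of the other sets lay in noncoding genes. The midpoint was inside a lncRNA gene for 18.1% of KO-only peaks (16.4 to 19.9%), 17.4% of the WT-only set (16 to 18.9%) and 18.3% of overlapped KO peaks (17.1 to 19.5%). The lncRNA genes with 3 KO-only peaks each were F630040K05Rik, Gm12223, Gm1604a and Gm29481. Gm12223, whose annotated span includes the cytokine gene Csf2, held 0 WT-only and 0 shared peaks, and Gm29481, beside the proteoglycan gene Gpc1, held 0 WT-only and 1 shared peak. Gm1604a differed from these in that it also held 7 WT-only and 10 shared peaks. Platr11, which lies upstream of Eomes, held 2 KO-only, 0 WT-only and 0 shared peaks. These lncRNAs were chosen after their values were seen.

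KO-only and WT-only peaks were spread differently over gene-rich and gene-poor DNA. The KO-only share of low-ranked KO peaks between genes was 32.6% (29.3 to 36%) where the surrounding 1 Mb held 0 to 4 protein-coding genes, 27.1% (25.2 to 29%) with 5 to 9 genes and 37.5% (31.3 to 44.1%) with 40 to 65 genes. The WT-only share of low-ranked WT peaks was 47.8% (44.3 to 51.2%) with 0 to 4 genes, 41% (39 to 43.1%) with 5 to 9 genes and 32.9% (26.7 to 39.5%) with 40 to 69 genes. The WT share was lower at each step of rising gene density, which did not hold for the KO share.

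By chromosome the KO-only share ranged, among autosomes, from 19.9% (14.9 to 25.8%) on chromosome 18 and 22.1% (18 to 26.6%) on chromosome 10 to 36.9% on chromosomes 17 (31.7 to 42.4%) and 19 (29.8 to 44.5%). On the X chromosome 33 of 141 low-ranked KO peaks between genes were KO-only, or 23.4% (16.7 to 31.3%), whereas 125 of 220 WT peaks were WT-only, or 56.8% (50 to 63.5%). Over all autosomes the shares were 29.7% in KO and 39.1% in WT. KO-only peaks made up 20.9% of the peaks of both sets on the X chromosome, 29.1% on chromosome 10, 53.8% on chromosome 11 and 57% on chromosome 19, against 41.9% over the genome. The sex of the mice is not given, and its part in the X chromosome values was not tested. On the Y chromosome 3 of 5 KO peaks were KO-only and 2 of 5 WT peaks were WT-only, so both merged lists hold peaks on it.

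**Figure D3:**
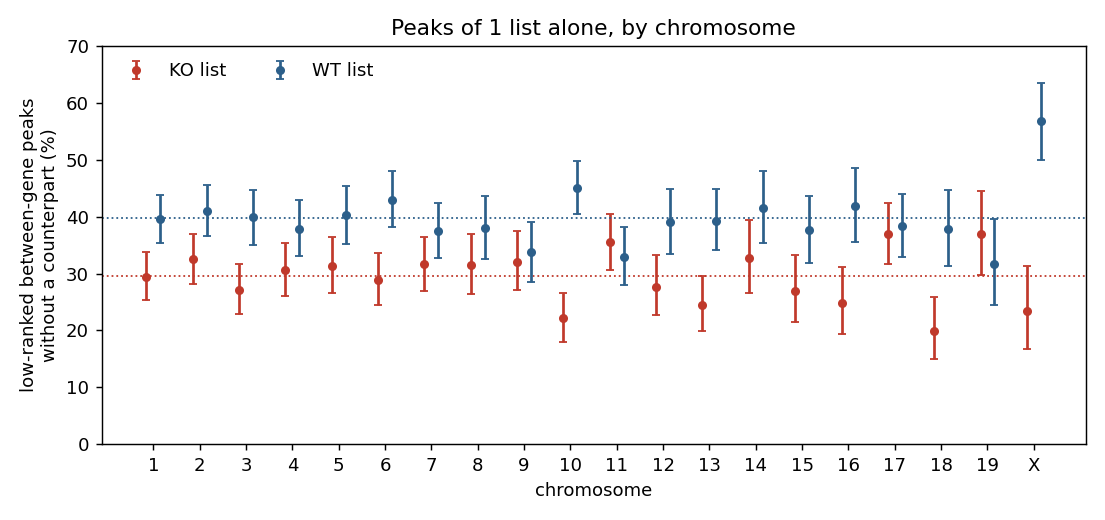
Share of low-ranked between-gene peaks without a counterpart (y axis, %) in the KO list (red) and the WT list (blue) by chromosome (x axis); bars are exact 95% intervals and dotted lines the shares over the genome, 29.6% in KO and 39.7% in WT. The lists lie furthest apart on the X chromosome, at 23.4% in KO and 56.8% in WT, and are close on chromosomes 9 (32.1% in KO, 33.7% in WT) and 17 (36.9% and 38.3%). Among the chromosomes drawn, the KO share is the higher on chromosomes 11 (35.5% and 32.9%) and 19 (36.9% and 31.6%). The Y chromosome, with 5 peaks in each list, is not drawn.

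KO-only peaks were scattered over many genes. Of 21887 protein-coding genes, 1602 (7.32%) were the nearest gene of at least 1 KO-only peak and 2116 (9.67%) of at least 1 WT-only peak. Both kinds were next to 424 genes, which is 26.5% of the genes with a KO-only peak and 20% of those with a WT-only peak. A single KO-only peak was nearest to 1358 genes, 2 to 186 genes, 3 to 49, 4 to 7, 5 to Gm40469 and 6 to Gm15319. Of the 58 genes with at least 3, 35 had no WT-only peak and 36 had a shared peak at an end. Among all 1602 genes with a KO-only peak, 26.5% also had a WT-only peak, so most had none and the 35 do not stand out. The share of all these genes with a shared end peak was not computed. At least 3 WT-only peaks were nearest to 95 genes.

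The genes named as having most KO-only peaks were Gm15319 and Gm40469, then Ccr3, Zfp984, Irf2, Urb2, Irf2bp2, B4galt5 and Dyrk2 with 4 each, and Gm5148, 1600014C23Rik and Zfp992 with 3 each. Of the 49 genes with 3, these are the ones with the nearest KO-only peak, at 1057, 1417 and 1708 bp. Gm15319 had 4 WT-only peaks and Gm40469 had 1. Both lie in the multi-copy defensin region of chromosome 8, and Zfp984 and Zfp992 belong to a zinc finger gene family with near-identical copies on chromosome 4, where copies share sequence, and these counts are uncertain.

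Irf2, an interferon regulatory factor that limits interferon signalling, had its 4 KO-only peaks in pairs. One pair lay 25.8 and 26.3 kb upstream of the gene and the other pair 3.24 kb and further beyond its 3′ end. Low-ranked KO peaks next to Irf2 numbered 4 in all, against 2 WT peaks, 1 of them WT-only. Irf2bp2, which encodes a corepressor that binds Irf2, also had 4, of 7 low-ranked KO peaks, and 1 WT-only peak of 3. Urb2, a ribosome biogenesis gene, had 4 of 4, and no WT low-ranked peak. B4galt5, which adds galactose to glycolipids, had 4 of 4, in a pair on either side of the gene, while its 3 low-ranked WT peaks each had a KO peak within 500 bp. Dyrk2, a protein kinase gene, had 4 KO-only and 4 WT-only peaks, so that single-list peaks of both genotypes surrounded it. Ccr3, the eotaxin receptor of eosinophils and type 2 cells, had 4 of 4, of which 3 lay 1.96, 6.14 and 9.33 kb beyond its 3′ end and the last 25 kb away; 1 WT-only peak stood among them.

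At Bcl11b itself 2 of 5 low-ranked KO peaks between genes were KO-only, both upstream of its start. The peak at chr12:108006311-108006503 was 2.26 kb from the gene, at 56.7% of the list, and 2.16 kb from the nearest WT peak. The peak at chr12:108041973-108042165 was 37.9 kb from the gene, at 95.5% of the list, and 18.5 kb from the nearest WT peak. A WT-only peak lay on the other side, 1.54 kb beyond the 3′ end. A peak list does not show whether the floxed allele was deleted.

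Among genes of Treg identity, Ctla4, the inhibitory receptor by which Treg cells restrain costimulation, had 2 KO-only and 0 WT-only peaks. They lay 45.8 kb and 20.1 kb upstream at chr1:60863134-60863326 and chr1:60888790-60888982, inside the lncRNA Gm38137, and the nearest WT peaks were 2.27 and 1.54 kb away. Of 5 low-ranked KO peaks next to Ctla4 the other 3 had a WT peak within 500 bp. Ikzf2, which encodes Helios, had 2 KO-only peaks at 69.8 and 17.5 kb from the gene and 3 WT-only peaks. Foxp3, the lineage-defining factor, Il2ra, the IL-2 receptor alpha chain, and Il10, the suppressive cytokine, had 0 KO-only and 0 WT-only peaks. For Foxp3 and Il2ra there was no low-ranked between-gene peak in either list, and for Il10 there were 2 in KO and 3 in WT. Socs2, a suppressor of STAT5 signalling, and Rgs1, a brake on chemokine receptor signals, had 2 KO-only and 0 WT-only peaks each.

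Each of 18 gene lists was described by the share of the low-ranked between-gene KO peaks next to its genes that were KO-only, which is 29.6% over all genes. Over the 26 Treg signature genes it was 13 of 40, or 32.5% (18.6 to 49.1%), and 15 of 39 WT peaks, or 38.5%, were WT-only. Over the 23 T cell receptor and identity genes it was 11 of 37, or 29.7% (15.9 to 47%), with 40.5% in WT. Both are near the values over all genes. Besides Bcl11b, the T cell list had 2 KO-only peaks at Skap1, an adaptor for integrin adhesion, and 1 each at Tox and Cd6.

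Of 18 genes of effector and tissue-homing Treg cells, 12 (66.7%) were next to a KO-only peak and 9 (50%) to a WT-only peak. A KO-only peak was next to 27% of all listed genes and to 7.32% of all protein-coding genes. Their share was 13 of 30, or 43.3% (25.5 to 62.6%), and in WT 12 of 30, or 40%. Gpr15, the receptor that brings T cells to the colon, had 2, at 7.76 and 1.42 kb beyond its 3′ end, and 1 WT-only peak. Klrg1, a marker of terminally differentiated cells, had 1 at 1.29 kb. Ccr4, a skin-homing receptor, had 1 at 1.82 kb, and Cxcr3, a receptor for interferon-induced chemokines, 1 at 3.32 kb. Klrg1, Ccr4 and Cxcr3 had 0 WT-only peaks, but a WT peak lay 0.704, 0.511 and 2.99 kb from their KO-only peaks. Naive and resting T cell genes went the other way in count: 6 of 28 KO peaks were KO-only, or 21.4% (8.3 to 41%), and 15 of 34 WT peaks were WT-only, or 44.1%. Foxo1, which keeps naive cells quiescent and recirculating, was next to 2 KO-only peaks and 3 WT-only ones, and its targets Ccr7 and S1pr1, which guide cells into and out of lymph nodes, had 1 and 2 each. Follicular helper genes had 4 of 21, or 19% (5.45 to 41.9%), and 45.5% in WT, with Icos at 2 KO-only and 4 WT-only peaks. The intervals of these lists include the shares over all genes.

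The KO-only shares of Th2, Th1 and Th17 genes were 52.2%, 45% and 36.8%, against 29.6% over all genes, and only the Th2 interval left 29.6% out. Th2 genes had 12 of 23 (30.6 to 73.2%), and 6 of 19 WT peaks were WT-only, or 31.6%. Of the 12, 4 were the Ccr3 peaks. Csf2, the growth factor GM-CSF, had 2, at chr11:54214656-54214848 and chr11:54240070-54240262, which were 151 and 176 kb from the nearest WT peak and stood at 93.7% and 59.5% of the list. Il4, the defining Th2 cytokine, had 1 at 2.63 kb beyond its 3′ end, 17.9 kb from the nearest WT peak. Th1 genes had 9 of 20 (23.1 to 68.5%), with 28.6% in WT. Ifng, the defining Th1 cytokine, had 3 of its 8 low-ranked KO peaks, at 13, 35.1 and 60.5 kb beyond its 3′ end, the last inside the lncRNA Ifngas1, and 1 WT-only peak. Runx3 and Irf1, transcription factors that promote Ifng and interferon responses, had 2 each, at 6.07 kb and 8.26 kb or further. Th17 genes had 7 of 19 (16.3 to 61.6%), with 37.5% in WT; besides Csf2 they were single peaks at Ccr6, Batf and Il17f among others.

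IL-2 and STAT5 signalling genes had 7 of 11, or 63.6% (30.8 to 89.1%), and in WT 2 of 6, or 33.3%. The 7 were 2 each at Socs2 and Pim1, a STAT5-induced survival kinase, and 1 each at Il2, Socs3 and Jak1. None of these 5 genes had a WT-only peak. The 2 WT-only peaks of the list were at Bcl2, which had 0 KO-only peaks. Jak1 and Bcl2 were named after their values were seen. Genes for AP-1, BATF, NFAT and NF-kB factors had 6 of 15, or 40%, against 55.6% in WT. Nfatc2, a calcium-activated factor, was next to 2 KO-only peaks and 0 WT-only ones, and Jun to 2 of each. Co-inhibitory receptor genes had 4 of 17, or 23.5%, against 41.7% in WT; besides Ctla4 the peaks were at Tigit and Tox.

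Lists for other cell types had KO-only shares of 0 to 75%, mostly over few peaks. Cytotoxic, natural killer and innate lymphoid genes had 13 of 32, or 40.6% (23.7 to 59.4%), and 33.3% in WT. Eomes, a driver of cytotoxic and memory fate, had 3 of 4, at 72.7, 53.7 and 27.2 kb upstream, and 1 WT-only peak. Nfil3, which starts innate lymphoid development, had 2 and 0, and Zeb2, a factor of terminal effector cells, and Fasl, the death ligand, had 2 each with 2 and 1 WT-only peaks. At Xcl1, a chemokine of cytotoxic cells, 5 of 6 low-ranked WT peaks were WT-only and 0 of 2 KO peaks were KO-only; Xcl1 was chosen after its values were seen. CD8 T cell genes had 6 of 8, or 75% (34.9 to 96.8%), of which 3 were the Eomes and 2 the Runx3 peaks that other lists hold too, and 3 of 8 in WT, or 37.5%. Cd8a had no peak in either list.

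Myeloid genes had 9 of 16, or 56.2% (29.9 to 80.2%), and 3 of 11 in WT, or 27.3%. Itgam, which encodes CD11b, had 2, at 1.55 kb and further beyond its 3′ end, and Fcgr1, the high-affinity Fc receptor, had 2 upstream, with 0 WT-only peaks at either. Spi1, the factor PU.1, had 1 KO-only and 1 WT-only peak, and Tlr2 had 1 and 0. KO-only peaks were next to 7 of 18 myeloid genes (38.9%) and WT-only peaks to 3 (16.7%), beside 27% and 25.8% of all listed genes. The genes Itgam and Csf1r held 0 peaks within the gene or 1 kb of it in both lists. Other myeloid genes, Spi1 and Tlr2 among them, had a peak in both lists at an end, as given above. The part of other cells in the KO-only peaks next to myeloid genes was not tested. B cell genes had 0 of 3 and erythroid and megakaryocyte genes 0 of 1, against 1 of 3 and 1 of 1 in WT. Housekeeping genes had 1 of 8, or 12.5%, at Ywhaz, with 2 of 11 in WT, or 18.2%. Non-lymphoid genes had 2 of 7, or 28.6%, both at Ins2, with 6 of 11 in WT, or 54.5%.

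In all, 100 of 282 low-ranked KO peaks next to a listed gene were KO-only, or 35.5% (29.9 to 41.4%), and 110 of 282 WT peaks were WT-only, or 39%. The KO-only share was above 29.6% in 11 of the 18 lists, and the interval left out 29.6% for 4: Th2, IL-2 and STAT5, myeloid and CD8 T cell genes. Of these, only Th2 genes kept an interval above 29.6% in both alternatives. It was 44 to 89.7% with peaks assigned by the nearest transcription start and 32.3 to 83.7% with peaks within 20 kb of the gene. Starts were taken from the promoter windows, which gave a strand for 17492 of 21887 protein-coding genes. The nearest-start alternative therefore left out part of the genes, and peaks beside those went to another gene or to none. By the nearest start the interval took in 29.6% for myeloid genes (26.6 to 78.7%) and CD8 T cell genes (29 to 96.3%). Within 20 kb it did so for IL-2 and STAT5 genes and for CD8 T cell genes, at 15.8 to 100% for each. The interval of the WT-only share left out 39.7% for 0 of 18. The lists share genes, hold between 1 and 40 KO peaks, and were not independent of earlier results.

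**Figure D4:**
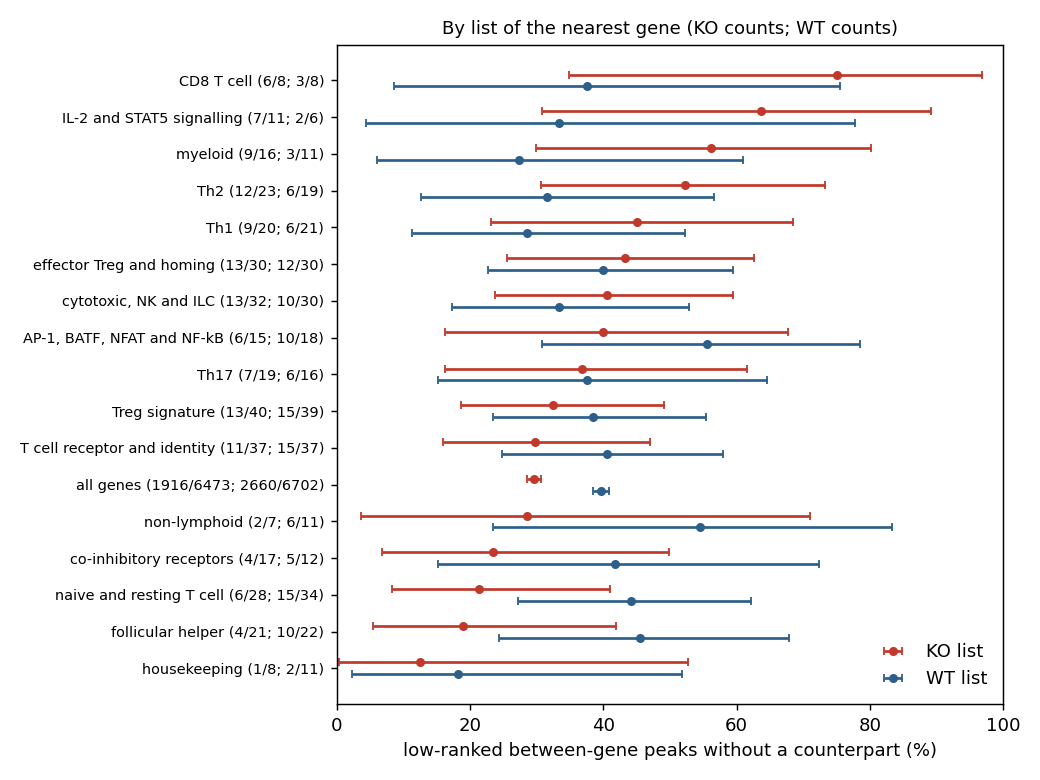
Share of low-ranked between-gene peaks without a counterpart (x axis, %) in the KO list (red, upper) and the WT list (blue, lower) by list of the nearest gene (rows); bars are exact 95% intervals, and the counts in brackets are KO-only of KO peaks, then WT-only of WT peaks. The B cell list and the erythroid and megakaryocyte list, with 3 and 1 KO peaks, are not drawn. CD8 T cell genes are highest in KO at 75% and housekeeping genes lowest at 12.5%.

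Some KO-only peaks stood in groups. At least 1 other KO-only peak lay within 10 kb of 14.2% of them (12.7 to 15.9%), against 14.3% (13 to 15.7%) of the more numerous WT-only peaks and 21.6% of overlapped KO peaks, a share that grows with the size of a set. Chains of at least 3 KO-only peaks with steps of up to 10 kb numbered 18 and held 59 peaks, or 3.08% (2.35 to 3.95%). WT-only peaks had 22 chains and 74 peaks, or 2.78% (2.19 to 3.48%). In the larger overlapped sets the shares were higher, with overlapping intervals: 3.78% (3.21 to 4.41%) in 49 chains for KO and 3.36% (2.8 to 4%) in 39 chains for WT. The chains named next were chosen after their values were seen, apart from Ccr3 and Pim1.

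A chain of 4 at chr7:140976774-140991303 spanned 14.5 kb between Ifitm1 and Ifitm3, genes for interferon-induced membrane proteins that block virus entry. The nearest WT peak was 8.05 kb from any of them, and another KO-only peak stood further toward Ifitm3. At chr17:29506190-29513342 a chain of 3 in 7.15 kb lay between Pim1 and Tmem217, with the nearest WT peak 11.6 kb away and 1 more KO peak that no WT peak overlaps within 10 kb.

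Chains of 3 stood near Notch3, a receptor of the Notch pathway (chr17:32100290-32113781), near Xbp1, a factor of the unfolded protein response (chr11:5500277-5509626), and inside the lncRNA Gm29481 near Gpc1 (chr1:92799733-92816061). Their nearest WT peaks were 8.68, 3.01 and 15.6 kb away. A chain of 3 at chr12:113232402-113250144, 43 to 60.5 kb from Tmem121, lies in the immunoglobulin heavy chain region and had its nearest WT peak 9.94 kb away. The densest chain was on the X chromosome, where 3 KO-only peaks stood in 1.09 kb, 58 to 58.9 kb from Asmt and 59.8 kb from the nearest WT peak. The 1 Mb around it held 1 protein-coding gene. Repeat content was not computed there, so this count is uncertain.

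**Figure D5:**
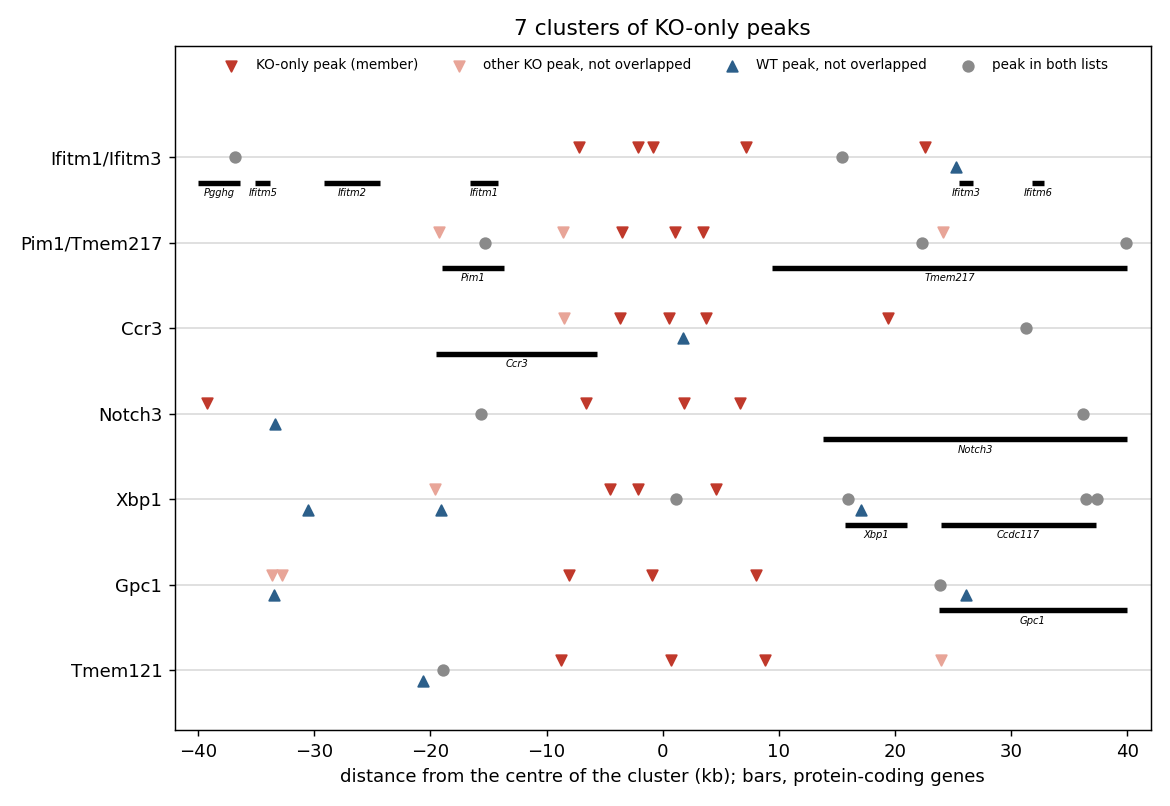
Positions of peaks in 7 chains of KO-only peaks (rows, named by nearest genes) by distance from the centre of the chain (x axis, kb): KO-only peaks (red), other KO peaks with no WT overlap (pale red), WT peaks with no KO overlap (blue) and peaks in both lists (grey); black bars are protein-coding genes, drawn only within 40 kb of the centre. Only in the Ccr3 row does a WT peak without KO overlap stand between the KO-only peaks of the chain.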

How the data were processed

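ATAC-seq of sorted CD4+YFP+ cells was made from 3 KO and 3 WT samples. The submitters' processing notes name HISAT2 2.1.0, HOMER 4.10.1, SAMtools 1.3, deepTools, FastQC, cutadapt 1.12 and Trim Galore 0.4.2 and the build mm10, with no roles or settings. The deposited files are 1 peak list per genotype, with positions and a score that the authors left at 1 in every row, so no depth, height or replicate value was used. Widths differ between the lists, and a peak missing from a list may be just under its threshold.

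Gaps to the other list, gene distances and neighbours were computed in Python 3.11.15 (pandas 2.3.3, scipy 1.17.1, numpy 2.4.6) and checked on simulated peaks against bedtools 2.31.1. Protein-coding genes came from RefSeq GRCm38.p6. Named genes were 6 fixed Treg genes, the 12 with most members, up to 4 per list by members and then distance, and those at the limits; others are marked as chosen later. The members and lists were chosen with earlier results of these data known. No genome was used, so motif, repeat and GC content were not computed over all members; promoter windows and microRNAs stand in for them. The percentages are shares of the deposited peaks.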

Additional observations from a re-analysis of the deposited data

How the results depend on the processing

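The number of KO-only peaks was 1916 and stayed within 1.5 times of that except at 5 to 50 kb from the nearest gene end, where it was 1264. The median distance to the nearest gene end, 17575 bp, was 9678 bp when all genes of the annotation were used in place of protein-coding ones; the share with a shared end peak at the nearest gene was then 28.5% and the share with a shared peak within 10 kb 32.1%. That last share, 35.9%, was 30.2% with a gap of 2 kb to the nearest WT peak and 29.7% in the last 25% of the rows. In those rows the share within 10 kb of another KO-only peak was 9%, against 14.2%, and the share with a shared end peak 48.1%, against 50.8%. The 100 KO-only peaks next to a listed gene were 51 when counted within 20 kb alone. The other 36 of 45 recomputed values stayed within the interval of the main value or 1.5 times of a count, and so did 49 of 55 for single lists and chromosomes. The 6 that did not were the KO-only shares of IL-2 and STAT5 genes and of CD8 T cell genes, 100% each within 20 kb against 63.6% and 75%, and those of housekeeping genes (12.5%) and non-lymphoid genes (28.6%), which were 0 both within 20 kb and by the nearest transcription start. Motif, repeat and GC content of the KO-only peaks, planned with their alternatives, were not run for want of a genome sequence. Leaving out a sample was not possible because each list merges the samples of its genotype. No paired analysis was possible because each genotype has 1 merged list and no value per sample. The unknown depth of the lists limits every statement that a peak is absent from WT.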

Other observations

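Genes with at least 3 KO-only peaks and 0 WT-only peaks included several with known roles in lymphocytes or in signalling, chosen after their values were seen. They are from the 35 such genes among the 58 with at least 3. Of all genes with a KO-only peak 26.5% also had a WT-only peak, so to have 0 was common. Bcl2l11, which encodes the pro-apoptotic protein Bim, had 3 of its 5 low-ranked KO peaks between genes, at 5.84, 41.6 and 59.3 kb beyond its 3′ end, the middle one inside the lncRNA Gm14009. Lztfl1, a ciliary trafficking gene, had 3 of 3. Pde4b, a phosphodiesterase that breaks down cyclic AMP, had 3 of 4, and Prex1, a Rac activator of migrating leukocytes, had 3 of 4. Bmp7, a growth factor of the TGF-beta family, had 3 of 4, at 94.6, 35.9 and 12.8 kb.

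Genes of several multi-copy families were next to 3 KO-only peaks; counts in such families are uncertain. These were the pheromone receptor genes Vmn2r96 and Vmn2r97, with 3 of 3 and 3 of 4 low-ranked KO peaks, the defensin gene Defb33 with 3 of 6, Speer4d with 3 of 3, and the class I gene H2-M10.4 with 3 of 3. Of these, Speer4d had 1 WT-only peak and the others 0.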
